A study of Bos taurus with 8 samples.

Results

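The transcription factor p53 is held at a low level by MDM2, a ubiquitin ligase that is itself a p53 target, and is released when DNA is damaged or cells are stressed. Its targets include CDKN1A, which encodes the cyclin-dependent kinase inhibitor p21, CCNG1, which encodes cyclin G1, and SESN1, which encodes sestrin 1. GADD45A, GADD45B and GADD45G encode small acidic stress proteins that bind cell cycle kinases, the kinase MAP3K4 and DNA repair factors. GADD45A is a p53 target, whereas GADD45B and GADD45G respond mostly to cytokine, NF-kappaB and differentiation signals. In early embryos, p53 and p21 are known as part of the response to culture stress and damaged DNA.

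These 7 of the 15229 genes named in the array annotation were followed through all probes that carry their symbols, 11 of 43794. SESN1 has 3 probes, CCNG1 and GADD45A have 2 each, and the other 4 genes have 1 each. Probes of a gene are numbered here from the brightest to the dimmest, and they share the same RNA, so they are not replicates. In the annotation MDM2 is probe EMBV3_41693, CDKN1A EMBV3_06797, GADD45B EMBV3_09789 and GADD45G EMBV3_06805. CCNG1 is EMBV3_20930 and EMBV3_09696, GADD45A is EMBV3_38155 and EMBV3_13075, and SESN1 is EMBV3_43327, EMBV3_08855 and EMBV3_16995. Of the 11 probes, 10 passed the filter on dim probes, and SESN1 probe 3 did not and was described without a test. Positions in the genome are left out, since the sources used here name no build.

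The samples were blastocysts of dairy cattle, produced wholly in vitro from ovaries collected at slaughter and pooled by 10. The glucose group was cultured in 5 mM glucose from day 0 to day 3, and the control group, named vitro in the labels, in 0.2 mM. Both groups then grew in the same ordinary culture medium, with BSA from sigma, until collection at 180 h after fertilization. There were 4 pools per group, and each glucose pool was hybridised against a control pool on 2 two-colour arrays with the dyes exchanged, so the 8 arrays make 4 replicates. That arrays of the same number carry the same 2 pools is inferred from their numbers and from the check of pairs. The labels do not say whether the pools came from separate fertilizations, so the spread between them may be partly technical. A pool mixes inner cell mass and trophectoderm, and less RNA per cell cannot be told apart from fewer cells of a type.

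Between 66.2% and 82.2% of probes per array exceeded that array's negative control spots in at least 1 channel. Of 12 markers of trophectoderm and inner cell mass, 7 did so in every channel, among them POU5F1, KRT8, KRT18 and IFNT. CDX2 did so in 4 glucose and 6 control channels of 8, and SALL4, the lowest on the control side, in 5 and 2. The ratios of replicate 4 were spread most, with an SD of 0.43 (log2) over the probes tested, against 0.19 to 0.24 for the other 3. The number of arrays limits the precision. Every ratio below is log2(glucose/control), positive where the glucose pool was brighter, and each mean is given with the SD between the 4 replicates.

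The question was whether high glucose during the first cleavages was followed by a different level of p53 target and GADD45 transcripts in the blastocyst. No probe of the 7 genes passed the adjusted threshold of 0.05 in either direction (limma, Benjamini-Hochberg, lowest adjusted p = 0.977). GADD45G, the GADD45 gene best known in differentiation, was the member farthest from 0, at -0.34 ± 0.30 (SD, n = 4), or 1.26-fold dimmer after glucose. The bright probes of the other 6 genes had means between -0.07 and 0.13. Over the array as a whole 0% of the 32935 probes tested passed as well. At an unadjusted p under 0.05, 1 of the 10 member probes was brighter in the control pools, which is 10% of them, against 0.638% of all probes tested. None was brighter in the glucose pools, against 1.73% of all probes, and both directions together made up 2.37% of all probes. Of the 10 member probes, 5 had a mean above 0 and 5 below, and over all probes tested 50.2% were above 0. With 10 probes, that 1 probe is all that the first share rests on, and the genes were chosen with earlier results of these data known.

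**Figure D1:**
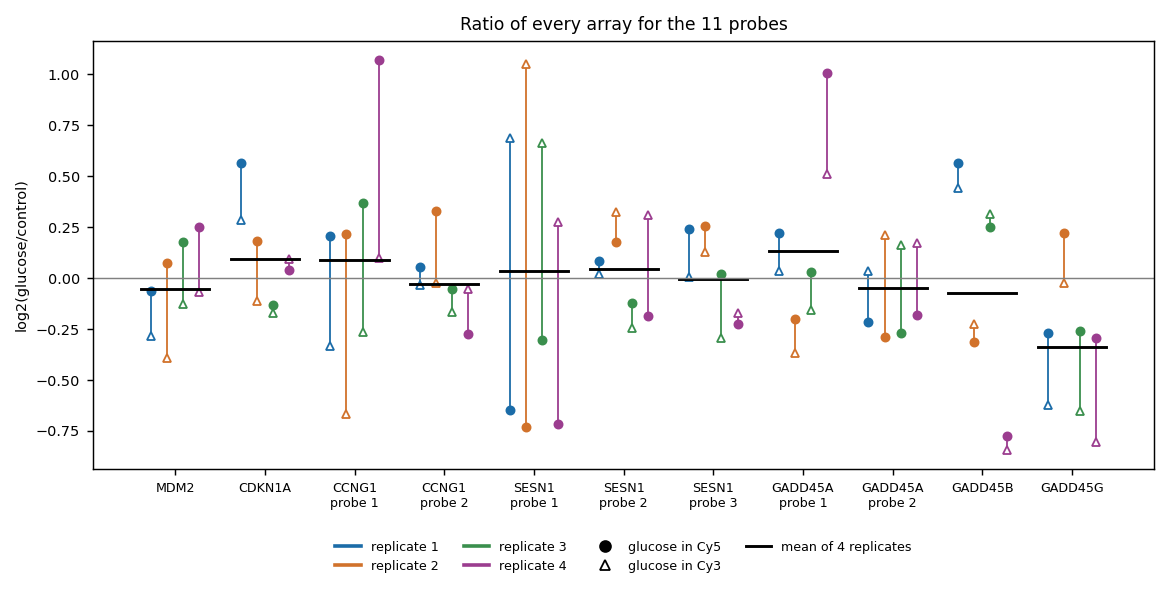
Ratio log2(glucose/control) on each of the 8 arrays for the 11 probes. Circles are arrays with glucose in Cy5 and triangles those with glucose in Cy3, lines join the 2 arrays of a replicate, and bars are means of 4 replicates. The GADD45B pairs lie close together on both sides of 0, whereas the pairs of SESN1 probe 1 span from -0.73 to 1.05 by dye.

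MDM2, the ligase that marks p53 for destruction, had nearly the same level in both groups. Its ratios were -0.17, -0.16, 0.03 and 0.09 in replicates 1 to 4. Replicates 1 and 2 lay below 0 and replicates 3 and 4 above. The mean was -0.05 ± 0.13 (SD, n = 4), with a 95% interval from -0.23 to 0.13 by limma (adjusted p = 0.977). The log2 level ranged from 7.58 to 7.77 in the glucose pools and from 7.53 to 7.87 in the control pools, so the groups overlapped. The probe was dim, with raw intensities of 117 to 333, and the offset used in background correction shrinks the ratios of such probes. The ratio depended on the dye: it averaged 0.11 with glucose in Cy5 and -0.22 with glucose in Cy3. A dye term of this kind passed for 47.4% of all probes tested, with replicate as a block, and it cancels in the mean of a pair.

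CDKN1A, the main effector of p53 in cell cycle arrest, was farthest from 0 in replicate 1, where the glucose pool was brighter. Its ratios were 0.42, 0.04, -0.15 and 0.07, above 0 in 3 of 4 replicates. In replicate 1 both arrays lay above 0, at 0.56 and 0.28, and 3.44% of probes tested were as far from 0 there. The mean was 0.09 ± 0.24 (SD, n = 4), with a 95% interval from -0.18 to 0.36 (limma, adjusted p = 0.977). Without replicate 1 the mean was -0.02. The glucose pools had log2 levels of 8.24, 7.999, 7.77 and 7.91, and the control pools 7.81, 7.96, 7.93 and 7.84. The highest and the lowest of the 8 pools were both glucose pools.

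CCNG1 encodes cyclin G1, an atypical cyclin that recruits a phosphatase to MDM2. Its probe 1 was brighter than 97.4% of probes on the array and gave ratios of -0.06, -0.23, 0.05 and 0.58. Replicate 4 alone was clearly above 0, and there 15.2% of probes tested were as far from 0. The mean was 0.09 ± 0.35 (SD, n = 4), with a 95% interval from -0.28 to 0.46 (limma, adjusted p = 0.977). Without replicate 4 it was -0.08. The dye mattered for this probe too, with a mean of 0.47 with glucose in Cy5 and -0.29 with glucose in Cy3, and only 1 of the 4 pairs had the same sign on both arrays.

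The dim CCNG1 probe 2 did not follow the bright one. It gave 0.01, 0.15, -0.11 and -0.16, a mean of -0.03 ± 0.14 (SD, n = 4). In replicate 4, where probe 1 was highest, probe 2 was lowest. Of its 8 channels in each group, probe 2 was above the negative controls in 5. The disagreement between the probes was not tested.

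SESN1 encodes sestrin 1, which restrains mTORC1 and supports the cell's defence against oxidants. The bright probe 1 gave 0.02, 0.16, 0.18 and -0.22, a mean of 0.04 ± 0.18 (SD, n = 4), with a 95% interval from -0.18 to 0.26 (limma, adjusted p = 0.977). Replicates 1 to 3 lay above 0 and replicate 4 below. Behind these small means stood a large dye effect. With glucose in Cy3 the ratio was 0.69, 1.05, 0.66 and 0.28 in replicates 1 to 4, and with glucose in Cy5 it was -0.65, -0.73, -0.30 and -0.72. The sign turned with the dye in all 4 pairs, and 1.21% of probes tested had a dye term as large. The SD between replicates, 0.18, was no larger than the 0.19 that the 2 arrays of a pair gave for a replicate mean.

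The other SESN1 probes were close to the background. Probe 2 gave 0.05, 0.25, -0.18 and 0.06, a mean of 0.05 ± 0.18 (SD, n = 4), and was above the negative controls in 5 of 8 channels of the glucose pools and 2 of 8 of the controls. Probe 3 gave 0.12, 0.19, -0.14 and -0.20 and was above them in 2 channels of either group. All 3 probes lay above 0 in replicates 1 and 2. In replicate 3 the bright probe was above 0 and both dim probes below, and in replicate 4 probe 2 was above 0 and the others below.

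**Figure D2:**
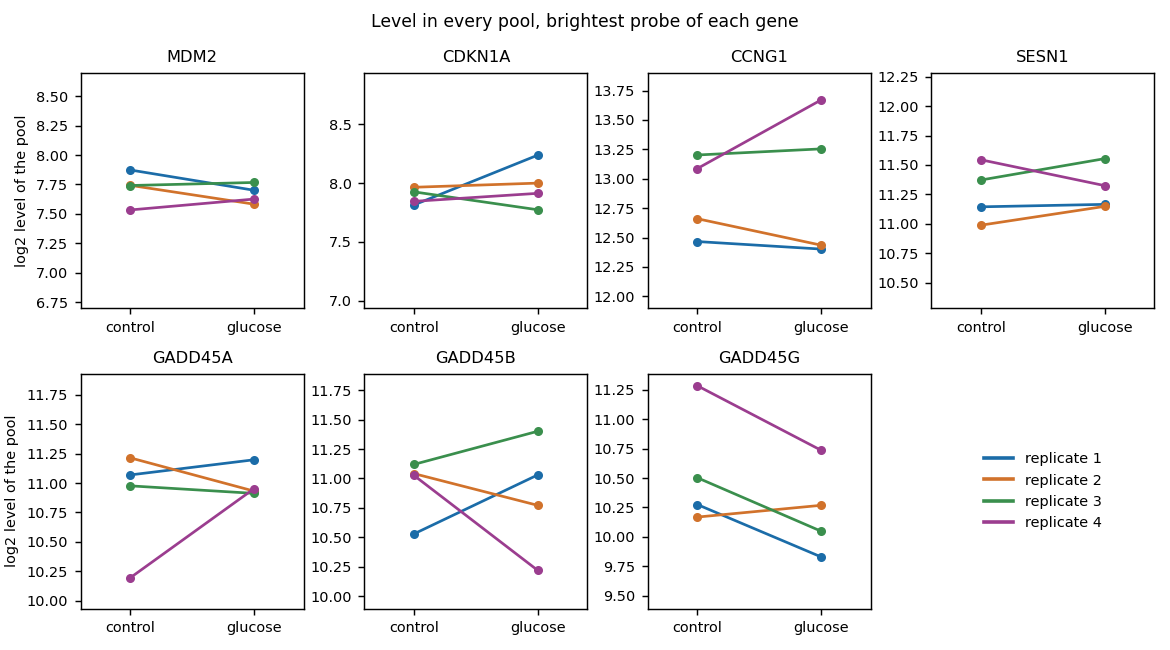
Log2 level (normalised intensity per channel, mean over the 2 arrays of a pool) in each control and glucose pool, for the brightest probe of each gene, with a line joining the pools hybridised together. The y axes all span 2 log2 units and start at different levels, since levels of different probes cannot be compared. For GADD45G 3 of the 4 lines slope down toward glucose, and for GADD45B 2 rise and 2 slope down.

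The brightest probe of each GADD45 gene had an SD between replicates of 0.30 to 0.59. For the brightest probes of MDM2, CDKN1A and SESN1 it was 0.13 to 0.24, and for that of CCNG1 0.35. The probes of MDM2 and CDKN1A were dim, and the offset shrinks such ratios. Among probes tested, the SDs of the GADD45 genes stood at percentiles 73.9 to 94.9, and that of CCNG1 at 80.3. The GADD45 genes did not share a direction. GADD45A, the p53-regulated member, was brighter after glucose mainly in replicate 4. The bright probe 1 gave 0.13, -0.28, -0.06 and 0.76, a mean of 0.13 ± 0.45 (SD, n = 4), with a 95% interval from -0.33 to 0.60 (limma, adjusted p = 0.977). Both arrays of replicate 4 were above 0, at 1.01 and 0.51, and 9.39% of probes tested were as far from 0 in that replicate. Without replicate 4 the mean turned to -0.07. By pool, the control pool of replicate 4 was the lowest of the 8 at 10.20, against 10.98 to 11.21 in the other control pools and 10.91 to 11.20 in the glucose pools.

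GADD45A probe 2, which was dim, gave -0.09, -0.04, -0.05 and -0.00. It was the 1 member probe of 10 tested with the same sign in every replicate, against 10.5% of all probes tested, or 5.35% below 0 and 5.19% above. On single arrays the sign turned with the dye in all 4 pairs, at 0.15 on average with glucose in Cy3 and -0.24 with glucose in Cy5. Its mean was -0.05 ± 0.04 (SD, n = 4), and the SD between replicates was smaller than the 0.05 that the arrays of a pair gave for a replicate mean. The 95% interval ran from -0.17 to 0.08 (limma, adjusted p = 0.977).

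GADD45B, an early response gene of NF-kappaB and TGF-beta signalling, had the clearest differences within pool pairs and no common direction. Its ratios were 0.50, -0.27, 0.28 and -0.81. Replicates 1 and 3 were brighter after glucose and replicates 2 and 4 were dimmer. The 2 arrays of each pair gave nearly the same value, 0.56 and 0.44 in replicate 1, -0.31 and -0.22 in replicate 2, 0.25 and 0.31 in replicate 3, and -0.77 and -0.84 in replicate 4. They differed by 0.06 to 0.12, and the mean difference between dyes was 0.01. The SD between replicates was 0.59, which is 11.4 times the SD of a replicate mean from its arrays. Over all probes tested the median of this ratio was 2.31, and 5.23% of probes had one as high.

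The mean of GADD45B was -0.07 ± 0.59 (SD, n = 4), with a 95% interval from -0.67 to 0.53 (limma, adjusted p = 0.979). That interval reached about as far down as that of GADD45G (-0.66) and less far up than that of GADD45A probe 1 (0.60). For probes as variable as these, a difference between the groups of moderate size was not detectable with 4 pairs of pools. The log2 level of GADD45B was 11.03, 10.77, 11.40 and 10.22 in the glucose pools of replicates 1 to 4. In the control pools it was 10.53, 11.04, 11.12 and 11.03. The control pool of replicate 1 and the glucose pool of replicate 4 were the low ones.

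By median ratio, markers of mesenchymal cells were also brighter after glucose in replicates 1 and 3. Of 10 such markers, VIM, COL1A1 and COL3A1 among them, 8, 3, 10 and 4 were brighter in the glucose pool of replicates 1 to 4, and their median ratios were 1.05, -0.08, 1.39 and -0.07. The list holds genes already known to be bright in replicates 1 and 3. Their summed normalised intensity was 35429 to 70606 in the glucose pools and 33201 to 46940 in the control pools, and glucose over control in this sum was 0.985, 0.974, 2.03 and 1.13 in replicates 1 to 4. None of the 10 was below the negative controls throughout. The sums of other markers differed between the pools to a varying degree. For 6 markers of blood cells glucose over control was 1.04, 1.03, 1.01 and 0.915 in replicates 1 to 4. For 10 of cumulus and granulosa cells it was 1.03, 1.11, 0.835 and 1.34. Glucose over control was 0.446, 1.34, 0.872 and 1.13 in replicates 1 to 4 for the 4 markers of inner cell mass. For the 5 of primitive endoderm it was 0.597, 1.49, 1.18 and 0.689, and for the 8 of trophectoderm 1.26, 0.938, 0.855 and 1.06. Bright genes weigh most in such sums, and the counts of markers brighter after glucose differed from them. In replicates 1 to 4 these counts were 3, 4, 1 and 3 for inner cell mass and 3, 4, 5 and 3 for primitive endoderm. For trophectoderm they were 6, 3, 3 and 6. In replicate 1, NANOG of the inner cell mass list had -1.94 and HNF4A of the primitive endoderm list -1.43. The part of any of these markers in the values of GADD45B and GADD45G was not tested. Without replicates 1 and 3, which are the 2 with GADD45B above 0, the mean of the remaining 2 was by that choice negative, at -0.54. Without replicate 4 it turned to 0.17.

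GADD45G was dimmer after glucose in 3 of 4 replicates. Its ratios were -0.45, 0.10, -0.46 and -0.55, and 7 of the 8 arrays lay below 0. The 3 low replicates lay close together, and replicate 2 stood apart from them. The 95% interval of the mean ran from -0.66 to -0.02, and the unadjusted p was 0.0418 (limma, adjusted p = 0.977). There were 630 of the 32935 probes tested with a p as low, counting both directions, and none of them passed the adjusted threshold. The values of replicates 1 and 3 were matched or passed, in distance from 0, by 2.94% and 4.61% of probes tested in those replicates, and that of replicate 4 by 16.7%.

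By pool, GADD45G had log2 levels of 9.83, 10.27, 10.05 and 10.74 after glucose and 10.27, 10.17, 10.50 and 11.28 in the controls. The groups overlapped, as they did for all 11 probes. Over all probes tested, 0.841% had groups that did not overlap. Both pools of replicate 4 were the highest of their groups. The 2 arrays of a pair differed by 0.24 to 0.51, in each pair with the lower ratio where glucose was in Cy3, and the SD between replicates was 5.26 times the SD of a replicate mean from its arrays. In array set 047 alone the mean was -0.38 and in array set 056 alone -0.30. Without replicates 1 and 3, where the median ratio of mesenchymal markers was above 0, it was -0.22 (limma, unadjusted p = 0.369, from 2 replicates). Leaving out any 1 of the low replicates ended the unadjusted call: with replicate 1, 3 or 4 left out in turn, the means were -0.30, -0.30 and -0.27, and the unadjusted limma p-values were 0.132, 0.129 and 0.104 (adjusted p = 0.989, 0.861 and 0.988). Without replicate 2 the mean was -0.48 (limma, unadjusted p = 0.00201, adjusted p = 0.999).

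**Figure D3:**
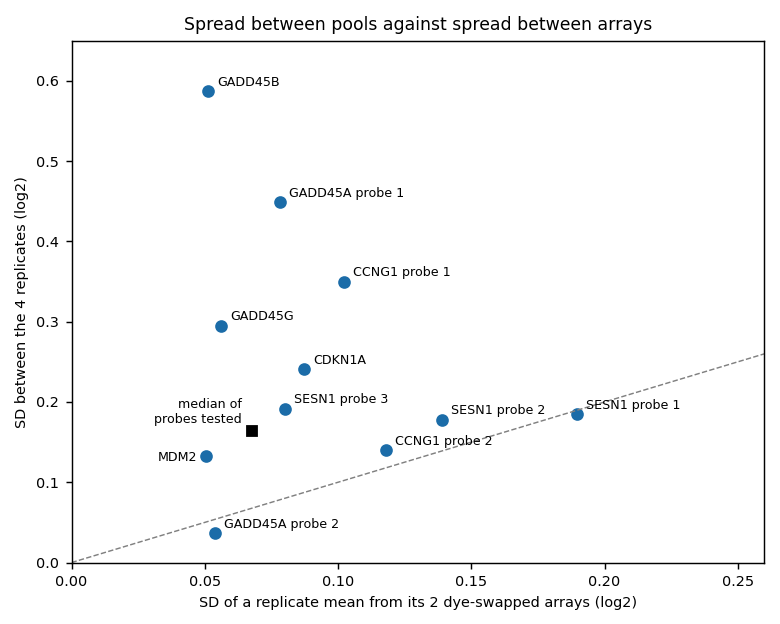
SD between the 4 replicate ratios (y axis, log2) against the SD of a replicate mean as estimated from its 2 dye-swapped arrays after removal of the dye effect (x axis, log2). Points are the 11 probes, the square is the median of all probes tested and the dashed line marks equal values. GADD45B lies at 0.59 against 0.05, and SESN1 probe 1 lies near the line.

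In exact sign-flip terms 4 pairs cannot give a two-sided p below 0.125. The limma values can lie lower because limma takes the ratios as normally distributed and borrows spread from all probes. Counts of channels above the negative controls were lowered by 1 array. On the replicate 1 array with glucose in Cy3, the SD of the 153 negative control spots in Cy3 was 569. The probes of MDM2, CDKN1A, GADD45G and GADD45A probe 2 exceeded the controls in 7 of 8 glucose channels and in all control channels. Without the brightest of those spots they did so in all 8 glucose channels.

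The direct regulators of p53 were near 0 as a group. Of 17 listed, 13 were tested, 6 above and 7 below 0. Their median was -0.00, with none past the adjusted threshold. Over all 12589 named genes tested, 52.2% were above 0 and the median was 0.01. MDM4, the MDM2 relative that masks the activation domain of p53, had -0.00 ± 0.10 (SD, n = 4). The damage kinases ATR and ATM had 0.17 ± 0.41 and -0.11 ± 0.33. For ATR the mean came from replicate 4, at 0.79, against -0.08 to 0.01 in the others. TP63, the p53 family member of epithelia, had -0.08 ± 0.20.

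Other targets of p53 did not share a direction either. Of 36 listed, 24 were tested, 12 on each side of 0, and their median was -0.00. At an unadjusted p under 0.05 there was 1 brighter after glucose, or 4.17%, and none dimmer, against 2.08% and 0.62% of all named genes tested. It was BTG1, an antiproliferative gene, with 0.08, 0.09, 0.32 and 0.39 in replicates 1 to 4, or 0.22 ± 0.16 (SD, n = 4, limma, unadjusted p = 0.0367, adjusted p = 0.977). BTG1 was above 0 in 4 of 4 replicates, and was the only tested gene of the list with 1 sign throughout, or 4.17% of them, against 9.61% of all named genes. POLK, a translesion DNA polymerase, had 0.24 ± 0.43, with 0.87 in replicate 4. SESN2, the stress-induced sestrin, had -0.10 ± 0.13, with a probe above the negative controls in only 1 glucose channel and 5 control channels.

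Relatives and partners of p21 had no common direction. Of 14 listed, 13 were tested, 6 above and 7 below 0. Their median was -0.02, with means from -0.10 to 0.13. CDK2, the kinase that p21 inhibits best, had -0.07 ± 0.06 (SD, n = 4), CDK4 had -0.10 ± 0.24 and the S-phase cyclin CCNA2 had 0.13 ± 0.32. None of the 13 had the same sign in all 4 replicates, against 9.61% of all named genes tested. With 13 genes that count says little about the list.

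Partners of the GADD45 proteins and of the sestrins were also without a call. Of 10 GADD45 partners 9 were tested, 5 above and 4 below 0, and their median was 0.05. The repair endonuclease ERCC5 had -0.08 ± 0.10, CCNB1, the mitotic cyclin whose kinase GADD45 proteins bind, had 0.13 ± 0.37, and GADD45GIP1, which encodes a GADD45-binding mitochondrial protein, had -0.05 ± 0.09 (SD, n = 4 each). Of 14 sestrin genes and partners 10 were tested, 5 on each side of 0, and their median was 0.04. SQSTM1, the autophagy receptor p62, had 0.37 ± 0.58, with 1.15 in replicate 4 and -0.16 in replicate 2. GATSL3, a regulator of mTORC1, had 0.13 ± 0.19. No gene of these lists passed the adjusted threshold in limma.

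**Figure D4:**
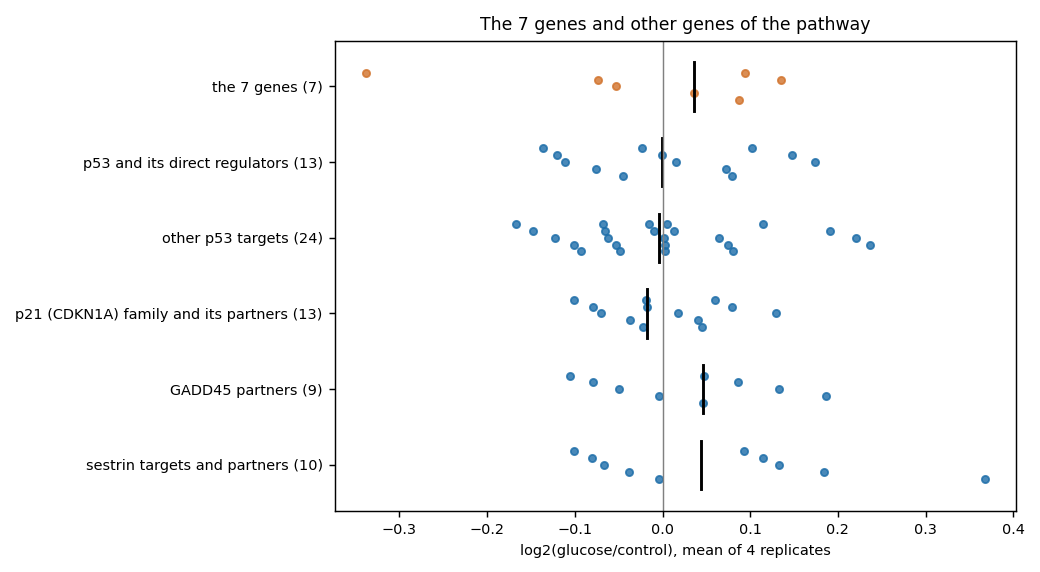
Mean log2(glucose/control) over 4 replicates for the brightest probe of each of the 7 genes and of each tested gene in 5 lists of regulators, targets and partners, with the number of genes in brackets. Bars are medians, which lie between -0.02 and 0.05. GADD45G is the lowest point and SQSTM1 the highest.

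The genes whose pool levels were most like those of a member were sought among 10017 named genes above the negative controls on all arrays, by Pearson correlation over the 8 pools. They are the highest of many and the pools hybridised together share their arrays, so the values are descriptions. Spearman coefficients of the same pairs ran from 0.762 to 1. For GADD45B they were TMEM173 (r = 0.961) and C16H1ORF14 (r = 0.934), and for GADD45G LOC787057 (r = 0.982) and TUBGCP4 (r = 0.963). GADD45A was most like PPIH (r = 0.983) and MFAP1 (r = 0.981), and CCNG1 most like C26H10ORF6 (r = 0.989) and TRMT61B (r = 0.984). For SESN1 they were GLCCI1 (r = 0.992) and ZBTB24 (r = 0.988), for CDKN1A WDR44 (r = 0.931) and TMED4 (r = 0.92), and for MDM2 ZNF391 (r = 0.928) and F5 (r = 0.927).

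**Figure D5:**
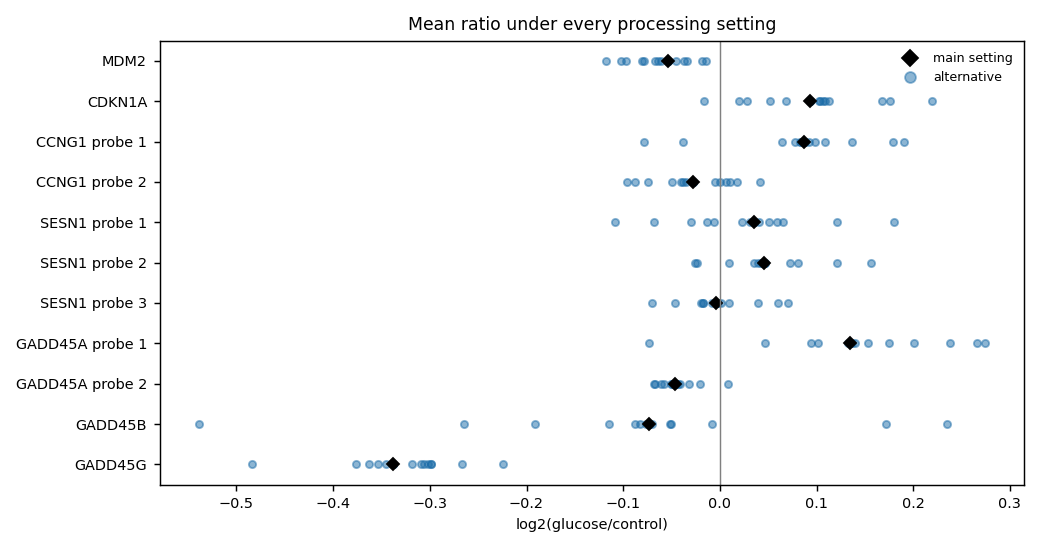
Mean log2(glucose/control) of each probe under the main setting (diamond) and under each alternative (circles). GADD45G stays between -0.48 and -0.22 and MDM2 between -0.12 and -0.01, and the circles of GADD45B spread from -0.54 to 0.24.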

How the data were processed

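Total RNA of each pool was amplified in 2 rounds and labelled with Cy3 or Cy5, per the labels' protocols. The deposited scanner files give spot intensity and local background per channel, not yet normalized, per the file headers. The authors' series table holds a score per probe and array with no stated unit, used only as an alternative. It was read, by inference, as log2 glucose signal over log2 control signal. Its column medians lay between 0.998 and 1, and the ratios implied by that reading had correlations of 0.968 to 0.996 with those of the scanner files over brighter probes. Its scale and normalization stay unknown. The submitters' processing notes name limma.

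Background was removed from the mean intensities with normexp (offset 50), and channels were normalized by loess within arrays, with control spots at weight 0, in R 4.3.3 with limma 3.58.1. All ratios were expressed as log2(glucose/control), and the 2 arrays sharing a number were averaged. These pairs correlated at 0.733, 0.773, 0.846 and 0.912 after removal of the dye effect, and at most 0.214 with another number. A probe was tested when above the mean plus 2 SD of the negative control spots in 1 or both channels on at least 4 of 8 arrays (32935 of 43794). Log2 ratios were tested against 0 with lmFit and eBayes, two-sided, with Benjamini-Hochberg adjustment over all probes tested. Pool levels came from Aquantile after loess. Symbols are those of the array annotation, in which 21790 probes have 1 symbol. The fit was tested on simulated data.

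The genes, lists, tests and alternatives were chosen with earlier results of these data known. Named from each list are the 3 genes of lowest p, and MDM4, by the brightest probe, and for each member the 2 most similar genes. Alternatives changed background, spot summary, normalization, filter, unit of replication, weights, array set and replicates.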

Additional observations from a re-analysis of the deposited data

Results flagged for a closer look

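Of 53 groups of 4 values examined, 4 had a single value far from the other 3, where chance gives about 1 in 20. The GADD45G ratio of replicate 2, at 0.10, stood apart from -0.55 to -0.45 in the others. The glucose pool of replicate 1 had a GADD45A log2 level of 11.20, against 10.91 to 10.95 in the other glucose pools. The control pool of replicate 1 had a GADD45B log2 level of 10.53, against 11.03 to 11.12. The ATR ratio of replicate 4 was 0.79, against -0.08 to 0.01. CDK1, TDG and USP7, described below, also had a replicate 4 value far from the other 3 and are not among these 4. So did RFWD2, at 0.85 against -0.20 to -0.15, and RCHY1, at 0.95 against -0.17 to -0.05. The count therefore does not cover every listed gene.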

How the results depend on the processing

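Under all 19 alternatives, 0 probes of the array and 0 of the 7 genes passed the adjusted threshold. At an unadjusted p under 0.05 the count over all probes was 780, and 412 to 2711 under the alternatives, with 412 for median centring, 2056 with array weights, 1681 without replicate 4 and 2711 for 8 arrays with no replicate block. With the replicate block on 8 arrays it was 1129, and the call for the 7 genes did not move: 0 passed. The filter with the brightest negative control spot left out was added after the data were seen. The changes of filter, Aquantile and the fits on 8 arrays leave a probe's mean ratio as it was, so its sign cannot turn there. Aquantile leaves the p-values as they were too, and the fit with no replicate block counts the 2 arrays of a pair as separate. GADD45G and MDM2 kept their sign in all 19, and GADD45G had an unadjusted limma p under 0.05 in 13 of them, and not with median centring (0.178), in array set 056 alone (0.0674), or without replicate 1 (0.132), 3 (0.129), 4 (0.104) or 1 and 3 (0.369). Of 188 values of the tested probes under an alternative, 18 changed sign, as did 5 of 17 for the untested SESN1 probe 3, which ran from -0.07 to 0.07. The 18 were found with median spot intensity CCNG1 probe 2 (0.011), SESN1 probe 1 (-0.068), SESN1 probe 2 (-0.026) and GADD45A probe 2 (0.0085); with array weights, which ranged from 0.304 for replicate 4 to 3.03 for replicate 1, CCNG1 probe 1 (-0.038), CCNG1 probe 2 (0.0062) and GADD45B (0.24); in array set 047 alone CCNG1 probe 2 (0.041) and SESN1 probe 1 (-0.11); and without replicates 1 and 3 SESN1 probe 1 (-0.030). The rest came with single replicates left out, where the means ran from -0.016 to 0.18 for CDKN1A, -0.079 to 0.19 for CCNG1 probe 1, -0.087 to 0.018 for CCNG1 probe 2, -0.013 to 0.12 for SESN1 probe 1, -0.023 to 0.12 for SESN1 probe 2, -0.073 to 0.27 for GADD45A probe 1 and -0.27 to 0.17 for GADD45B. CCNG1 probe 2 and SESN1 probes 2 and 3 have no value where all arrays had to exceed the negative controls, and SESN1 probe 3 none under the added filter. Why these values moved was not tested. Low signal over background limits the ratios of MDM2, CDKN1A and the dim probes.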

Other observations

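In replicate 4 alone, some partners of the GADD45 and p53 proteins differed strongly between the pools, and these genes were picked after their values were seen. CDK1, the mitotic kinase that GADD45 proteins bind, had 1.25 there, against -0.25, -0.10 and -0.16 in replicates 1 to 3. TDG, the DNA glycosylase that works with GADD45A in demethylation, had 1.10, against -0.25, -0.23 and -0.28. On the other side, USP7, the protease that removes ubiquitin from p53 and MDM2, had -1.07 in replicate 4, against 0.08, 0.27 and 0.17, and PIAS1, a SUMO ligase, had -1.10, against 0.10, 0.15 and 0.36. The means over 4 replicates were 0.19 ± 0.71, 0.09 ± 0.68, -0.14 ± 0.62 and -0.12 ± 0.66 (SD, n = 4), and none passed the adjusted threshold in limma. Ratios in replicate 4 were wide over the whole array, with an SD of 0.43 across probes.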
